A study of Mus musculus with 9 samples.

Results

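Retinoic acid, the active form of vitamin A, is made, broken down and sensed within the testis, and 10 genes of this pathway were described here in 9 mouse testes. They were the rows of the deposited expression table whose symbol is Rdh10, Aldh1a1, Aldh1a2, Aldh1a3, Cyp26a1, Cyp26b1, Stra6, Rara, Rarg or Stra8, which is 10 of the 22337 genes in the table. All 10 had counts in every testis and passed the filter on low counts in each comparison. RNA of testes was sequenced at 3 weeks of age in 3 wild-type samples (labelled WT-WT), 3 heterozygous samples (WT-KI, Piwil4 WT/R264W) and 3 homozygous samples (KI-KI, Piwil4 R264W/R264W), with no treatment. In the knock-in allele, which was made by CRISPR-Cas9 in C57BL/6 zygotes and is present in every cell, an arginine of PIWIL4 is replaced by tryptophan. PIWIL4 is a PIWI protein of fetal and early postnatal male germ cells that acts with small RNAs on retrotransposons. The labels number the replicates and do not say that each testis came from a separate mouse, so the p-values measure the spread between these samples.

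Retinol enters cells in part through the membrane receptor STRA6, is oxidised to retinal by RDH10 and then to retinoic acid by the aldehyde dehydrogenases ALDH1A1, ALDH1A2 and ALDH1A3. CYP26A1 and CYP26B1 break retinoic acid down. The nuclear receptors RARA and RARG bind it, pair with RXR receptors and act on genes that carry response elements. In the mouse testis ALDH1A1 is known from Sertoli and Leydig cells, ALDH1A2 from later germ cells and CYP26B1 from peritubular cells. Stra8, a gene induced by retinoic acid, is transcribed in differentiating spermatogonia and preleptotene spermatocytes, where its protein acts with MEIOSIN at the entry to meiosis. At 3 weeks the first wave of spermatogenesis is still in progress, so the make-up of a testis depends on how far the wave has come.

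Total counts ran from 18.0 to 24.3 M per testis, and 3 counts, the most that a count of 0 allows, came to between 0.122 and 0.171 CPM, that is, counts after TMM scaling for library size. Such limits cover counting error only. In every testis counts were found for all 12 Sertoli markers, 8 of 9 Leydig markers and all 7 peritubular myoid markers. The labels say testes and do not say whether the whole organ was used. Piwil4 itself had 1.67 ± 0.0855 CPM (SD, n = 3) in wild-type, 1.76 ± 0.558 in heterozygous and 1.20 ± 0.182 in homozygous testes. These values rest on 18 to 46 counts per testis, which do not show which allele was transcribed. All homozygous testes lay below all wild-type ones, where 5.58% of all genes had groups that did not overlap. The log2 fold change was -0.48 (95% interval -1.03 to 0.07, unadjusted p = 0.0784, adjusted p = 0.9998 from edgeR). Heterozygous replicate 2, at 1.12 CPM, lay among the homozygous testes. In bulk RNA, fewer cells of a type and less RNA per cell cannot be told apart.

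The promoters of Cyp26a1 and Stra8 are shown because both genes respond to retinoic acid and differ in what the window holds. RefSeq promoter windows, from 250 bases before to 50 bases after a start site on GRCm38.p6, were found for 8 of the 10 genes (16 windows). They were searched on both strands for the hexamer AGGTCA, to which receptors of this class bind, its variant AGTTCA with another central base, the variant GGGTCA with another first base and the variant GGTTCA with both changes, and for pairs of these in the same orientation, spaced by 2 or by 5 bases. The sequences run 5′ to 3′ on the strand of the gene, and capitals mark the hexamers.
Cyp26a1 (chr19:37697558-37697857, plus strand): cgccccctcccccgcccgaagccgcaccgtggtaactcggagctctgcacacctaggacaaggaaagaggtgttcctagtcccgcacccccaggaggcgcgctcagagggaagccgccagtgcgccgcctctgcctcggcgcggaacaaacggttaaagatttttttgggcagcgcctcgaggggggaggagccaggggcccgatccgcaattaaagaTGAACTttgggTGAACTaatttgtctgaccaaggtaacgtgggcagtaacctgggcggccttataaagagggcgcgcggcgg
Stra8 (chr6:34920698-34920997, plus strand): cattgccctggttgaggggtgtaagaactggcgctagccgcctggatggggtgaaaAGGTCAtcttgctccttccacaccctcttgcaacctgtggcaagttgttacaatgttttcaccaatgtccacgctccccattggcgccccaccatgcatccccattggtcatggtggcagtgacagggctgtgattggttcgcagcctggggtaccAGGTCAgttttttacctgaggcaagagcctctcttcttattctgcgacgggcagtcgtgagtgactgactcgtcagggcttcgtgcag

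In the Cyp26a1 window a direct repeat spaced by 5 bases lay on the minus strand, from -32 to -16 relative to the start site. Such a repeat was present in 32 of 32851 promoter windows of this length (0.0974%), and a repeat spaced by 2 bases in 88 (0.268%). The Stra8 window held the hexamer AGGTCA from -194 to -189 and from -38 to -33, with no direct repeat at these spacings. Single hexamers were common, since 43.7% of all windows held at least 1. The windows of Aldh1a2 and Cyp26b1 held none, and no repeat was found in the windows of Aldh1a1, Stra6, Rara or Rarg. A match describes the letters of the window and shows no binding.

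The levels of the 10 genes spanned a wide range, which was compared per transcript length as FPKM (fragments scaled to transcript length and library size) computed by the authors. Aldh1a1 was the highest, at 219.4 ± 19.4 FPKM (SD, n = 9), followed by Aldh1a2 at 82.3 ± 3.68. Stra8 came next at 21.4 ± 4.36, and Cyp26b1 (13.3 ± 2.20) and Rara (8.77 ± 1.02) followed. The order from Aldh1a1 down to Stra6, the sixth gene, was the same in 9 of 9 testes, although the ranges of Stra8 and Cyp26b1 and of Cyp26b1 and Rara overlapped across testes. At the low end, Stra6 was at 4.39 ± 1.12, Rarg at 2.80 ± 0.741, Aldh1a3 at 2.23 ± 0.307 and Rdh10 at 2.11 ± 0.487 FPKM. Rarg and Aldh1a3, and Aldh1a3 and Rdh10, were neighbours that did not differ beyond their spread, with the first above the second in 6 of 9 testes each. Cyp26a1 was the lowest, at 0.970 ± 0.407 FPKM.

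**Figure D1:**
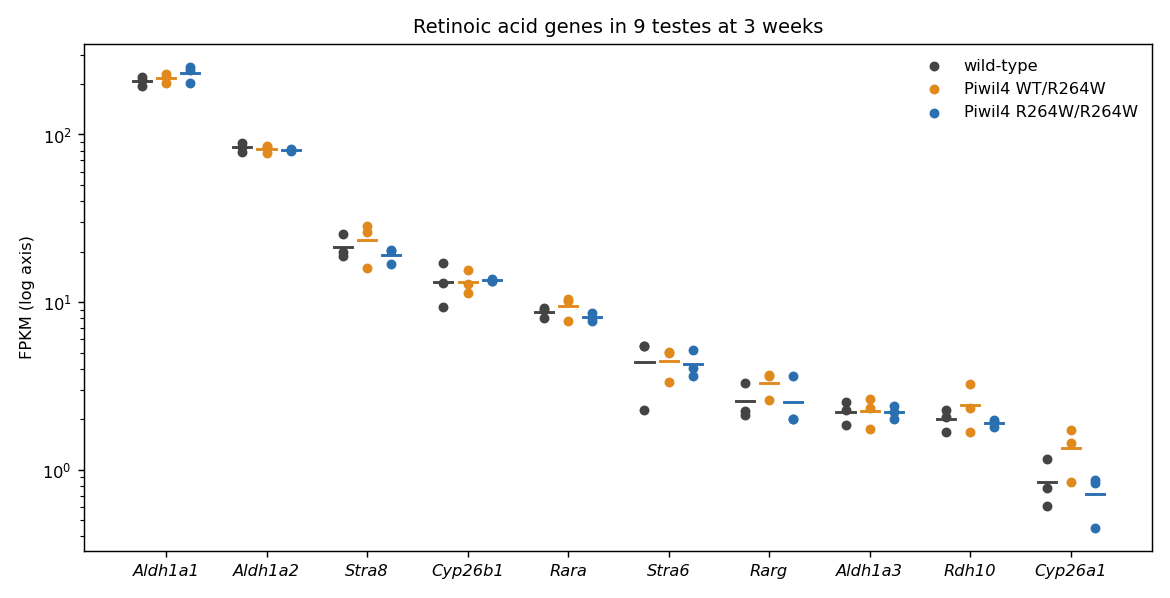
FPKM on a log axis for the 10 genes, ordered by their mean over 9 testes, with a point for each testis and a short line for each genotype mean (n = 3). The genes span from Aldh1a1 near 219.4 to Cyp26a1 near 0.970 FPKM, and the 3 genotypes overlap for each gene.

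Where more than 1 of the 10 genes shared a function, 1 of them carried most of their transcript signal. For the step from retinol to retinal the 10 genes hold only Rdh10, at 2.11 FPKM. Rdh11, from the wider list of retinol and retinal dehydrogenases, had 125.5 ± 8.59 FPKM (SD, n = 9), so Rdh10 does not stand for that step. Aldh1a1 exceeded Aldh1a2 by 2.38 to 3.16 times in FPKM across the 9 testes, and Aldh1a2 exceeded Aldh1a3 by 31.7 to 44.3 times. Cyp26b1 exceeded Cyp26a1 by 7.45 to 29.9 times, with a median of 15.4, and Rara exceeded Rarg by 2.41 to 3.99 times. Reads of Aldh1a1 may be shared with its close copy Aldh1a7, which had 8.86 FPKM on average (range 5.69 to 12.3), and how such reads were divided is not given in the sources used here. Stra6 overlaps Ccdc33 on the other strand, which ranged from 0.990 to 13.9 FPKM, and the use of strand in counting is not stated, so values of Stra6 are uncertain.

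The spread between testes also differed among the genes. The coefficient of variation of CPM over 9 testes was 3.69% for Aldh1a2, and only 0.976% of all tested genes had a lower one. It was 7.001% for Aldh1a1 and 9.79% for Rara. At the other end it was 39.8% for Cyp26a1, which had only 20 to 59 counts per testis, 27.5% for Stra6, 21.2% for Rdh10 and 20.2% for Rarg. Stra8 lay between them at 17.5%. Heterozygous replicate 3 held the highest CPM of 5 of the 10 genes (Rdh10, Aldh1a3, Cyp26a1, Rarg and Stra8), where 17.8% of all tested genes had their highest value. Heterozygous replicate 2 held the lowest CPM of 5 (Aldh1a2, Aldh1a3, Stra6, Rara and Stra8), where 8.14% of all tested genes had their lowest.

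The comparison of genotypes asked whether the R264W allele goes with a different level of these genes at 3 weeks. No gene of the 10 passed an adjusted p under 0.05 in any comparison by the quasi-likelihood test of edgeR, adjusted over all genes after Benjamini and Hochberg, and the adjusted p-values ran from 0.9482 to 0.9998. Between homozygous and wild-type testes 0 of 15543 tested genes passed (0%), while 1.26% had an unadjusted p under 0.05 and 5.58% had groups that did not overlap. Between homozygous and heterozygous testes these shares were 0%, 2.22% and 7.06% of 15463 genes, and between heterozygous and wild-type testes 0%, 1.11% and 5.36% of 15413 genes. With DESeq2, 1, 5 and 0 genes passed the adjusted threshold and 154, 290 and 111 the unadjusted one in the same order, none of them among the 10. The unadjusted p of edgeR was under 0.05 for 0, 1 and 0 of the 10 genes, and for none of them did the 3 testes of a genotype stand clear of the 3 of another. The exact two-sided permutation test of 3 against 3 testes cannot give a p below 0.1, and for the 10 genes it gave 0.2 or more. The comparisons share samples.

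The 95% intervals give the sizes of change that fit these samples. In homozygous against wild-type testes the log2 fold changes of the 10 genes had a median of -0.09, with 3 above and 7 below 0, against a median of -0.01 over all genes tested. In homozygous against heterozygous testes the median was -0.16 (4 above, 6 below) against 0.01, and in heterozygous against wild-type testes 0.05 (7 above, 3 below) against -0.02, although 5 of the 7 lay below 0 with libraries scaled to Sertoli genes, a scaling that moved the median of all genes from -0.02 to -0.21. Several marker lists lay mostly to 1 side of 0 in these contrasts, with no gene of them past the adjusted threshold. Over all genes tested, 7943 of 15463 were above 0 in homozygous against heterozygous testes. In heterozygous against wild-type testes 6921 of 15413 were. In homozygous against heterozygous testes 12 of 12 Sertoli genes (median -0.15) and 7 of 8 tested genes of undifferentiated spermatogonia (median -0.29) were below 0. Above 0 were 19 of 19 round spermatid genes (median 0.57) and 7 of 8 Leydig genes (median 0.69). So were 7 of 7 macrophage genes (median 0.16) and 11 of 13 genes of pachytene spermatocytes (median 0.08). The summed CPM of the Sertoli genes was 1042 to 1225 in heterozygous and 962 to 1089 in homozygous testes. That of the undifferentiated spermatogonium genes was 107 to 117 and 90.9 to 114, and for both lists the genotypes overlapped. In heterozygous against wild-type testes 12 of 12 Sertoli genes were above 0 (median 0.13) and 18 of 18 round spermatid genes below 0 (median -0.43). Also below 0 were 13 of 13 pachytene genes (median -0.10) and 7 of 8 Leydig genes (median -0.14). Cyp26a1 in homozygous against heterozygous testes had the largest change of the 10 genes, at -0.87. Its change was -0.81 with the stage score as a covariate, in a fit that also held the wild-type testes. Samples and covariate both differ between these fits, so the part of stage in this change was not tested. The part of the cell type lists in the log2 fold changes of the 10 genes was not tested either.

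**Figure D2:**
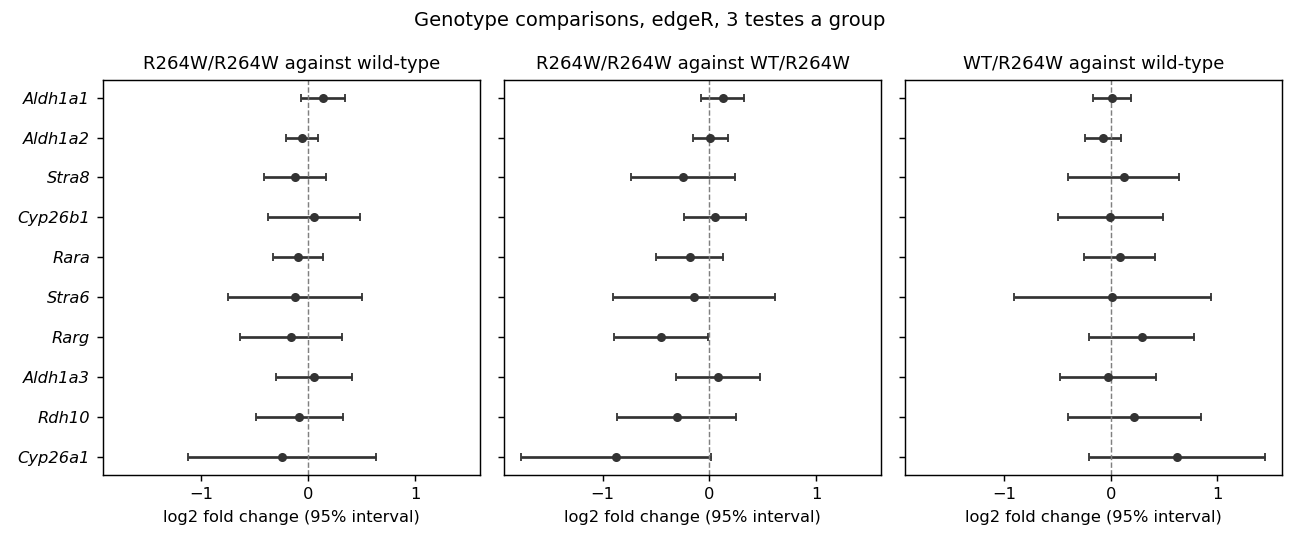
Log2 fold change of the 10 genes (points) with 95% intervals (bars) from edgeR in the 3 genotype comparisons, 3 testes a group, with 0 dashed. Intervals are narrow for Aldh1a1 and Aldh1a2 and wide for Cyp26a1 and Stra6, and only that of Rarg in R264W/R264W against WT/R264W (-0.89 to -0.01) leaves out 0.

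Of the genes that make retinoic acid, Aldh1a1 had 417, 436 and 415 CPM in the wild-type, 410, 436 and 440 in the heterozygous and 499, 481 and 420 in the homozygous testes. Homozygous replicates 1 and 2 lay above all others, while replicate 3 fell within the wild-type range. The log2 fold change of homozygous against wild-type testes was 0.14 (standard error 0.09, 95% interval -0.06 to 0.35), which in fold is 0.956 to 1.27. Without homozygous replicate 3 it was 0.21, with an unadjusted p of 0.0379 (under 0.05 for 0.959% of all genes in that fit) and an adjusted p of 1 from edgeR. The testis with the highest Aldh1a1 also held the most RNA of the list of epididymal genes, summing to 57.6 CPM against 6.15 to 29.1 in the other testes. Crisp1 (39.5 CPM, at most 5.34 elsewhere) and Adam7 (7.92 CPM, at most 0.392 elsewhere) made up most of it. In wild-type replicate 1, which had the 29.1 CPM, Cst8 made up 22.9 CPM and both Crisp1 and Adam7 were at 0. Of the 15 genes 3 had counts in every testis, and Lcn8, Lcn9 and Lcn10 were at 0 in all. The summed CPM of the 9 Leydig markers was 181 to 424 in wild-type, 181 to 292 in heterozygous and 284 to 447 in homozygous testes. The part of either in the level of Aldh1a1 was not tested.

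Aldh1a2 had 195, 194 and 201 CPM in the wild-type, 197, 181 and 188 in the heterozygous and 182, 188 and 196 in the homozygous testes. All 9 values lay within 1.11-fold of each other, and the groups overlapped. Its log2 fold change of homozygous against wild-type testes was -0.06 (standard error 0.06, interval -0.21 to 0.09), which in fold is 0.863 to 1.07. Aldh1a3 had 6.73, 7.39 and 8.49 CPM in the wild-type, 7.49, 6.20 and 8.62 in the heterozygous and 8.32, 7.80 and 7.40 in the homozygous testes, with a log2 fold change of 0.06 (interval -0.30 to 0.41). Rdh10 had 8.07, 6.12 and 8.20 CPM in the wild-type, 8.57, 6.20 and 11.5 in the heterozygous and 7.16, 6.61 and 7.40 in the homozygous testes. Its highest value was in a single heterozygous testis, and its log2 fold change was -0.08 (interval -0.49 to 0.32) in homozygous against wild-type testes.

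The genes that break retinoic acid down differed in how steady they were. Cyp26b1 had 45.5, 55.5 and 75.3 CPM in the wild-type, 69.3, 51.5 and 55.7 in the heterozygous and 61.1, 60.3 and 61.2 in the homozygous testes. The wild-type testes covered the whole range, and the homozygous testes lay close together in its middle. The log2 fold change of homozygous against wild-type testes was 0.05 (interval -0.38 to 0.48). Cyp26a1, whose promoter window holds the direct repeat, had 1.21, 1.42 and 2.08 CPM in the wild-type, 2.65, 1.56 and 3.05 in the heterozygous and 1.57, 0.816 and 1.59 in the homozygous testes. Heterozygous replicates 1 and 3 were the highest of all, and replicate 2 lay among the other genotypes. Its log2 fold change was -0.87 in homozygous against heterozygous testes (standard error 0.37, interval -1.76 to 0.02, unadjusted p = 0.0537 from edgeR) and 0.62 in heterozygous against wild-type testes (interval -0.20 to 1.45). Without heterozygous replicate 2 the latter was 0.86 (unadjusted p = 0.0443, adjusted p = 0.989 from edgeR), in a fit where 1.3% of all genes had an unadjusted p under 0.05. These intervals are among the widest of the 10 genes, with 20 to 59 counts per testis behind them.

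Stra6, the retinol receptor, had 6.96, 11.7 and 13.8 CPM in the wild-type, 13.6, 5.86 and 13.5 in the heterozygous and 8.95, 9.76 and 11.0 in the homozygous testes. A single wild-type and a single heterozygous testis were low, and the homozygous testes lay between. The log2 fold change of homozygous against wild-type testes was -0.12 (interval -0.75 to 0.50).

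Among the receptors, Rara had 23.6, 24.7 and 24.8 CPM in the wild-type, 28.2, 21.7 and 27.9 in the heterozygous and 24.2, 21.8 and 22.3 in the homozygous testes. Its log2 fold change was -0.10 in homozygous against wild-type testes (interval -0.33 to 0.14). Rarg had 6.68, 6.51 and 8.98 CPM in the wild-type, 9.47, 7.48 and 10.3 in the heterozygous and 7.74, 5.84 and 6.26 in the homozygous testes. Homozygous replicate 1 lay above heterozygous replicate 2, so the groups overlapped. Rarg had the only unadjusted p under 0.05 among the 10 genes, with a log2 fold change of -0.45 in homozygous against heterozygous testes (standard error 0.19, interval -0.89 to -0.01, unadjusted p = 0.0458, adjusted p = 0.9482 from edgeR), beside the 2.22% of all genes at that level. Without heterozygous replicate 1 or 3 or homozygous replicate 2 or 3 the log2 fold change was -0.42, -0.35, -0.37 and -0.42, with an unadjusted p of 0.105 to 0.142 from edgeR. In FPKM, homozygous replicate 1 had 3.60, near the highest heterozygous value of 3.68, so CPM and FPKM place this testis differently.

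Stra8 had 27.8, 26.2 and 32.4 CPM in the wild-type, 34.9, 22.0 and 37.7 in the heterozygous and 28.1, 27.2 and 24.4 in the homozygous testes. The heterozygous testes held both the highest values and the lowest, and the other genotypes lay within them. The log2 fold change was -0.12 in homozygous against wild-type testes (standard error 0.12, interval -0.41 to 0.17), -0.25 in homozygous against heterozygous testes (interval -0.73 to 0.24) and 0.12 in heterozygous against wild-type testes (interval -0.40 to 0.64). In fold the first interval is 0.752 to 1.12. Without heterozygous replicate 2 the contrast of homozygous against heterozygous testes had an unadjusted p under 0.05 for 6 of the 10 genes, all lower in homozygous testes (Rdh10, Cyp26a1, Stra6, Rara, Rarg and Stra8, with Stra8 at -0.45), and an adjusted p of 0.641 for each. In that fit 7.24% of all genes tested had such a p, and 4.77% were lower with such a p, against 2.22% and 1.05% with all 6 testes.

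The second question was whether the genes change as the first wave proceeds. The stage of each testis was given by a score, the average log2 CPM over 19 genes of round spermatids that include none of the 10. This score ran from 1.68 to 6.08 in wild-type, 1.08 to 5.13 in heterozygous and 2.68 to 5.91 in homozygous testes, with means of 3.52 ± 2.29, 3.32 ± 2.06 and 4.16 ± 1.63 (SD, n = 3 each). Along it 17.6% of 15771 tested genes were higher and 8.49% lower at an adjusted p under 0.05, in an edgeR fit of all 9 testes with genotype as a term. Of the 10 genes, 0 were higher and 0 lower, and 0 had an unadjusted p under 0.05. Their slopes had a median of -0.04 log2 per unit of score, with 9 of 10 below 0, against a median of -0.01 over all genes. With libraries scaled to the 12 Sertoli genes, which lie lower along the score (12 of 12 slopes below 0, 5 of them past the adjusted threshold, median -0.08), 8 of these slopes were above 0, of which 7 had turned, and the median over all genes was 0.07.

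**Figure D3:**
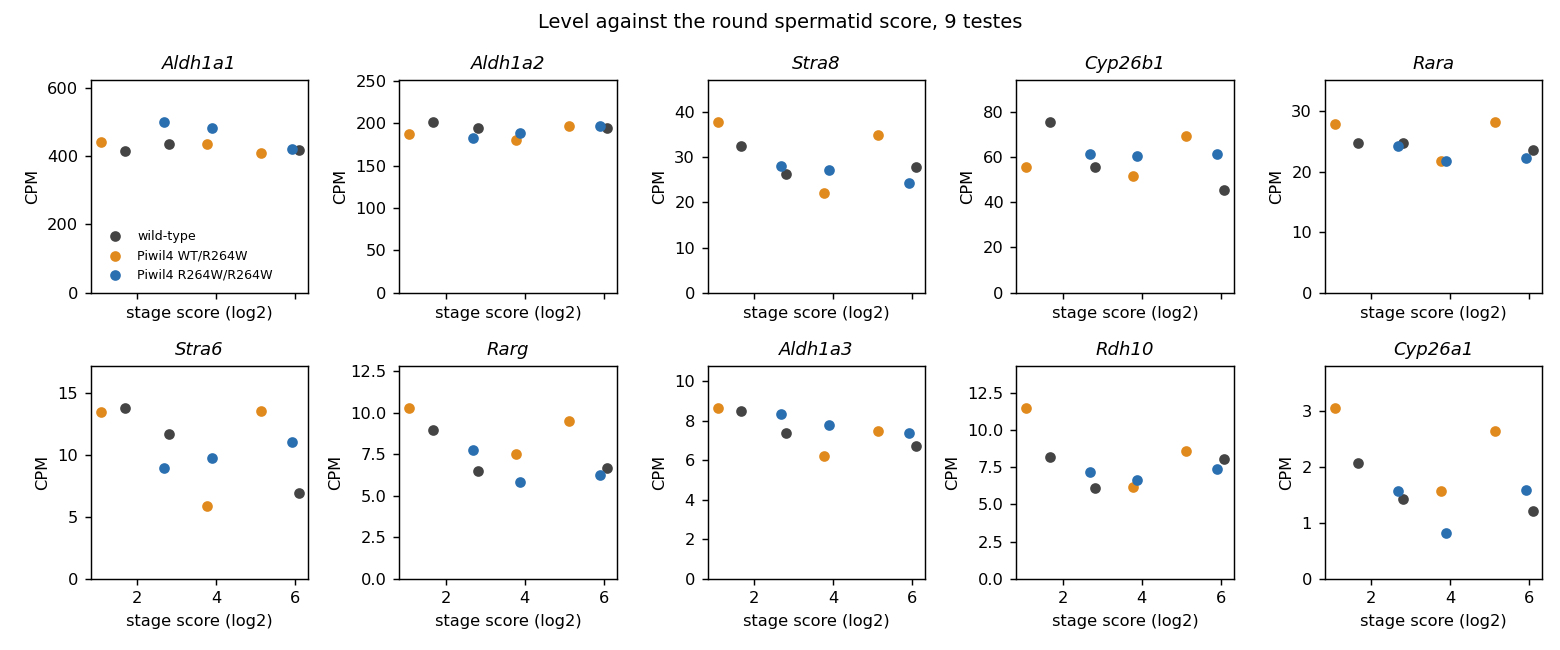
CPM of the 10 genes, each on its own axis from 0, against the round spermatid score (mean log2 CPM), with a point for each of 9 testes coloured by genotype. With TMM scaling Aldh1a2 is level across the score (180.5 to 201.1 CPM), and no gene of the 10 had a slope past the threshold.

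With TMM scaling Aldh1a2 was the steadiest along the score, with a slope of 0.01 (interval -0.03 to 0.05). Over the whole range of 5.004 units this is a log2 change of 0.05 (interval -0.13 to 0.23). Scaling to Sertoli genes moved the median slope of all genes from -0.01 to 0.07, so this steadiness is stated for TMM scaling only. For Aldh1a1 the change over that range was -0.13 (interval -0.31 to 0.06), and for Rara -0.09 (interval -0.39 to 0.21). Stra8 had a slope of -0.05 (interval -0.13 to 0.03), a change of -0.24 over the range (interval -0.65 to 0.17). The wild-type testis with the lowest score, replicate 3, had the highest Stra8 of its genotype, and so did heterozygous replicate 3, the lowest score of all. Homozygous replicates 1, 2 and 3, in rising order of score, had 28.1, 27.2 and 24.4 CPM. Against this, heterozygous replicate 1, at a score of 5.13, had 34.9 CPM, and replicate 2, at 3.77, had the lowest Stra8 (22.0 CPM). Wild-type replicate 1, at 6.08, had 27.8 CPM, above the 26.2 of replicate 2 at 2.81. The steepest slopes were those of Cyp26a1 at -0.09 (interval -0.27 to 0.10), Stra6 at -0.08 (interval -0.23 to 0.06), Rarg at -0.06 (interval -0.16 to 0.03) and Aldh1a3 at -0.06 (interval -0.14 to 0.02). Cyp26b1 and Rdh10 had slopes of -0.04 and -0.03. Without heterozygous replicate 1, the slopes of Cyp26b1 (-0.09, adjusted p = 0.0334 from edgeR) and Stra6 (-0.17, adjusted p = 0.0479) passed the threshold. Then 2 of the 10 genes were lower along the score, as were 17.4% of all genes in that fit. Ccdc33, which overlaps Stra6, ran from 0.990 FPKM in heterozygous replicate 3 to 13.9 in wild-type replicate 1, the lowest and the highest score. Its part in the slope of Stra6 was not tested.

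The rest of the pathway was described by lists of 64 further genes, of which 48 were tested along the score. Of these, 6 were higher and 5 lower at an adjusted p under 0.05, shares of 12.5% and 10.4% beside the 17.6% and 8.49% of all genes. Bco1, which cleaves beta-carotene to retinal, had the steepest slope at 0.82 (standard error 0.09, adjusted p = 8.14e-06 from edgeR) and ran from 0.210 CPM in heterozygous replicate 3 to 5.15 CPM in wild-type replicate 1. Lipe, the hormone-sensitive lipase, had a slope of 0.26, and the dehydrogenases Adh7 and Dhrs4 had slopes of 0.28 and 0.14. Adh5 was lower along the score at -0.07, as was the receptor cofactor Tacc1 at -0.06.

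Of 10 tested genes listed as retinoic acid responsive in germ cells, 2 were higher and 3 lower along the score at an adjusted p under 0.05, beside 17.6% and 8.49% of all genes, and 5 did not pass. Whether each listed gene responds to retinoic acid was not tested here. Rec8, a meiotic cohesin, was higher along the score with a slope of 0.33 (standard error 0.03, adjusted p = 4.3e-07 from edgeR), and Mael, a gene of the piRNA pathway, at 0.07. Dazl, an RNA-binding protein of germ cells, was lower at -0.14 (standard error 0.02, adjusted p = 0.00018), as were Sycp3, of the synaptonemal complex, at -0.10 and the spermatogonial factor Sohlh2 at -0.10. Meiosin had a slope of -0.08 (interval -0.19 to 0.03) and Kit of -0.07 (interval -0.14 to -0.01, adjusted p = 0.0847), neither past the threshold.

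Between genotypes no gene of the pathway lists passed the adjusted threshold. At an unadjusted p under 0.05 the counts were 0 of 46 in homozygous against wild-type, 3 of 45 in homozygous against heterozygous and 0 of 47 in heterozygous against wild-type testes, beside 1.26%, 2.22% and 1.11% of all genes. Cd36, a receptor for fatty acids, had 2.02, 4.58 and 2.68 CPM in heterozygous and 6.53, 6.78 and 7.86 CPM in homozygous testes, a log2 fold change of 1.19 (standard error 0.31, unadjusted p = 0.00683, adjusted p = 0.9482 from edgeR). The homozygous testes lay above all heterozygous ones, while wild-type replicate 1, at 7.66 CPM, lay among them. In the same contrast 4 of 4 tested adipose genes (median 1.001) and 7 of 8 Leydig genes were above 0. The summed CPM of the 7 adipose genes, 5 of which had counts in every testis, was 4.84 to 7.65 in heterozygous and 4.97 to 15.1 in homozygous testes, with Adipoq at 0.0526 to 0.614 and 0.447 to 1.82 CPM. The part of either list in the level of Cd36 was not tested. Crabp1, a binding protein of retinoic acid, had 10, 9.44 and 11.4 CPM in heterozygous and 9.26, 6.82 and 7.001 CPM in homozygous testes. Its log2 fold change was -0.41 (interval -0.82 to -0.01, unadjusted p = 0.0476 from edgeR). Wild-type testes had 6.63, 9.50 and 9.46 CPM. In FPKM homozygous replicate 1 (11.45) lay above heterozygous replicate 2 (11.43), so the groups overlapped. Crabp1 had a slope of -0.09 along the score (adjusted p = 0.0757 from edgeR), and the part of stage in its change was not tested. Sohlh2 also had an unadjusted p under 0.05, at -0.34, with overlapping groups. The remaining retinoic acid receptor, Rarb, had at most 0.368 CPM in any testis and Cyp26c1 at most 0.135 CPM, while Rxra had 18.9 to 26.8 CPM and Rxrb 36.4 to 46.0 CPM. Rdh7, Rdh19, Dhrs9 and Sdr16c5 had a count of 0 in every testis, which allows up to 3 counts in each.

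The genes whose log2 CPM followed that of Stra8 most closely over the 9 testes, among 14474 genes with a mean of at least 1 CPM, were Prdm9 (Pearson r = 0.967), Gnptab (0.962), Cidea (0.959), Usp53 (0.951) and Sos1 (0.950). Prdm9, the histone methyltransferase that marks sites of meiotic recombination, had 13.7, 11.99 and 17.1 CPM in the wild-type, 16.4, 9.99 and 18.5 in the heterozygous and 12.8, 12.7 and 9.90 in the homozygous testes. Like Stra8, it was highest in heterozygous replicate 3. Meiosin had 24.5, 24.6 and 39.6 CPM in the wild-type, 29.7, 17.9 and 36.2 in the heterozygous and 20.9, 23.4 and 24.9 in the homozygous testes, with its lowest value in the same heterozygous testis as Stra8. For Aldh1a2, whose log2 CPM had an SD of only 0.05 over the testes, the closest genes were Igf2bp2 (0.908), Mink1 (0.893), Vit (0.887), Celsr3 (0.871) and Zdhhc8 (0.871). These values were picked as the highest of many genes over 9 testes. The testes differ in library depth and stage, and all genes compared share these differences, so the values are given as a description.

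**Figure D4:**
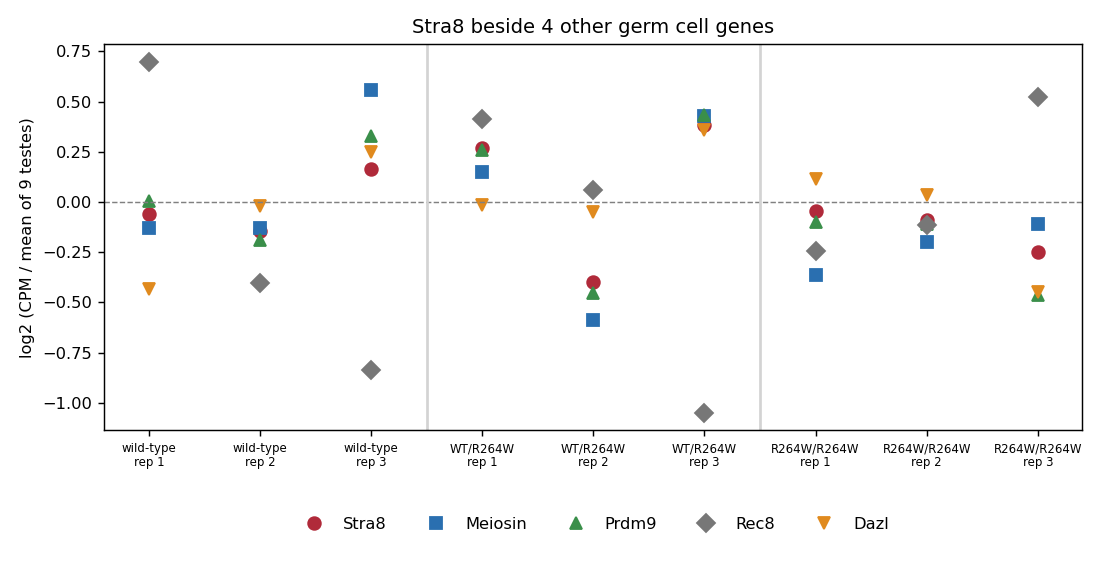
Log2 of CPM over the mean of 9 testes for Stra8, Meiosin, Prdm9, Rec8 and Dazl, by testis, with genotypes parted by vertical lines and the mean dashed. Stra8, Meiosin and Prdm9 are all low in WT/R264W replicate 2 (22.0, 17.9 and 9.99 CPM) and high in replicate 3 (37.7, 36.2 and 18.5 CPM), and Rec8 is low in replicate 3.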

How the data were processed

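RNA of 9 testes at 3 weeks was measured. Genotype and replicate came from the labels, whose names the table's columns carry. The authors filtered reads with fastp (version 0.18.0) and used StringTie (version 1.3.1), per the submitters' processing notes, which also name the build mm39 and DESeq2. The aligner, annotation and counting tool are not given in the sources used here. The table that the authors deposited gives FPKM values and estimated counts per gene and testis, and 89.2% of the estimated counts were whole.

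Estimated counts were rounded and fitted in R (version 4.3.3) with edgeR (version 4.0.16): filterByExpr, TMM scaling and the two-sided quasi-likelihood test with Benjamini-Hochberg adjustment over all genes, on the 6 testes of 2 genotypes, or on all 9 with genotype and stage score (19 of 20 listed round spermatid genes, prior count 1; the other was not matched). The procedure was tested on simulated counts. For homozygous against wild-type testes it recovered 148 of 200 genes with a log2 change of 2 (74%), with 5 false calls. Along the score it recovered 188 of 200 genes with a slope of 0.5 (94%), with 13 false calls. These simulated effects are larger than the largest of the 10 genes (Cyp26a1, -0.87 between genotypes and -0.09 per unit of score). Recovery at such smaller sizes was not tested. A gene that did not pass may therefore still differ. The 10 genes and all lists were chosen with earlier results of these data known. The rule for named genes took all 10, pathway genes past the adjusted threshold along the score (at most 4 per list and direction), those with an unadjusted p under 0.05 and groups that do not overlap, and the 5 genes most like Stra8 and Aldh1a2. Kit, Sohlh2 between genotypes, Rarb, Rxra, Rxrb, Cyp26c1, Rdh11, Meiosin and the genes at 0 lie outside this rule and were chosen with their values in view. The main results were recomputed with DESeq2 (version 1.42.0), size factors from DESeq2 in edgeR, scaling to Sertoli genes, no filter, limma (version 3.58.1) on log2(FPKM + 0.1), a replicate block, all 9 libraries in one fit, the stage score as a covariate, a pachytene score, no genotype term and each library left out. Replicates differed by more than sampling noise. Promoter sequences are those of RefSeq on GRCm38.p6, and no coordinates were taken from the deposited files.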

Additional observations from a re-analysis of the deposited data

How the results depend on the processing

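In the 3 genotype comparisons no gene of the 10 passed an adjusted p under 0.05 by edgeR, DESeq2 or limma in any of 14 alternatives each; the unadjusted count did move. In homozygous against wild-type testes it went from 0 to 1 with the stage score as a covariate (Aldh1a1, 0.16; 2.63% of all genes), and from 0 to 1 when libraries were left out (1 without homozygous replicate 3, Aldh1a1 at 0.21). In homozygous against heterozygous testes it went from 1 to 0 with DESeq2, Sertoli scaling or limma, and to 2 with all 9 libraries or the stage covariate (Cyp26a1 and Rarg; 1.93% and 3.25% of all genes); it ran from 0 to 6 with libraries left out, at 6 without heterozygous replicate 2 (7.24% of all genes) and at 0 without heterozygous replicate 1 or 3 or homozygous replicate 2 (1.5%, 1.4% and 1.04% of all genes). Without homozygous replicate 3 the count was 1, a gene higher in homozygous testes and so not Rarg (1.19% of all genes). In heterozygous against wild-type testes the count ran from 0 to 1 (Cyp26a1, 0.86, without heterozygous replicate 2). Along the score, the count lower at an adjusted p under 0.05 went from 0 to 1 with limma (Aldh1a1, -0.05; 18.2% of all genes) and ran from 0 to 2 with libraries left out (2 without heterozygous replicate 1, with 17.4% of all genes). The cause was not tested.

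Signs turned in these fits. In homozygous against wild-type testes Stra6 was 0.051 with limma. In homozygous against heterozygous testes Stra6 was 0.033 with Sertoli scaling, Aldh1a2 -0.029 and Aldh1a3 -0.0024 with limma, and Aldh1a2 -0.0035 with the stage covariate. In heterozygous against wild-type testes Sertoli scaling gave Rdh10 -0.0064, Aldh1a1 -0.18, Stra6 -0.14, Rara -0.12 and Stra8 -0.083, and moved the median of all genes from -0.02 to -0.21; in homozygous against heterozygous testes it moved from 0.01 to 0.15. Limma gave Aldh1a3 0.0068 and Cyp26b1 0.038 in heterozygous against wild-type testes, and Cyp26b1 was 6.0e-05 with all 9 libraries and 0.011 with the stage covariate. Along the score Sertoli scaling gave Rdh10 0.043, Aldh1a1 0.054, Aldh1a3 0.014, Cyp26b1 0.036, Rara 0.059, Rarg 0.011 and Stra8 0.028, and limma gave Aldh1a2 -0.017.

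With libraries left out in turn, signs also turned for Aldh1a3 (-0.018 to 0.15), Cyp26a1 (-0.40 to 0.013), Cyp26b1 (-0.10 to 0.27), Stra6 (-0.36 to 0.085) and Rarg (-0.29 to 0.0051) in homozygous against wild-type testes. In homozygous against heterozygous testes they turned for Aldh1a2 (-0.028 to 0.044), Aldh1a3 (-0.037 to 0.20), Cyp26b1 (-0.036 to 0.19) and Stra6 (-0.44 to 0.044). In heterozygous against wild-type testes they turned for Rdh10 (-0.024 to 0.43), Aldh1a1 (-0.0075 to 0.066), Aldh1a3 (-0.15 to 0.10), Cyp26b1 (-0.15 to 0.21), Stra6 (-0.22 to 0.32) and Stra8 (-0.028 to 0.34), and along the score for Rdh10 (-0.087 to 0.035) and Cyp26b1 (-0.088 to 0.023).

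The labels do not say whether replicate numbers pair the testes. Deviations of same-numbered testes correlated from -0.73 to 0.78, over 0.1 in 2 of 9 pairs. Those of differently numbered testes correlated from -0.81 to 0.80, over 0.1 in 10 of 18 pairs. These values cannot decide whether the numbers pair testes, since same-numbered testes also differ in stage score. With the replicate block the unadjusted counts were 0, 1 (Cyp26a1 at -0.87) and 0, and Cyp26b1 was 0.014 and Stra6 -0.016 in heterozygous against wild-type testes. Depth limits Cyp26a1 most, with 20 to 59 counts per testis.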
